A study of Homo sapiens with 4 samples.

Results

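The genes described here are 8 core transcription factors of the hepatocyte: FOXA1, FOXA2, FOXA3, HNF4A, NR5A2, CEBPA, ONECUT1 and PROX1. They were chosen by name, and all 8 were found among the 25343 gene symbols listed. The libraries came from Huh7 and PLC/PRF/5, a pair of established human hepatocellular carcinoma lines. Lentivirus brought each line either a hairpin RNA aimed at SCD1 (gene symbol SCD), the enzyme that desaturates stearoyl-CoA, or a non-target control. Both lines grew in the same high-glucose medium with serum. All cells had been transduced stably and selected with puromycin, so the controls carry a vector too. Knockdown used a single hairpin, so effects of this hairpin other than on SCD cannot be told apart from those of SCD loss. There were 4 groups of 1 library each: Huh7 control, Huh7 SCD1 knockdown, PLC/PRF/5 control and PLC/PRF/5 SCD1 knockdown. The study asked which genes differ between knockdown and control.

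Hepatocyte identity rests on a network of transcription factors that bind each other's regulatory regions and those of genes for plasma proteins, apolipoproteins and metabolic enzymes. The forkhead factors FOXA1, FOXA2 and FOXA3 open compacted chromatin ahead of other factors, and HNF4A is the nuclear receptor on which much of the adult liver program depends. CEBPA is linked to hepatocyte maturity and to exit from proliferation, and NR5A2 to bile acid and cholesterol handling. ONECUT1 (HNF6) and PROX1 act early, when hepatoblasts form and spread from the liver bud, and remain expressed in adult hepatocytes.

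Promoters are shown for the members on which the results below turn: HNF4A, with the highest level in PLC/PRF/5, CEBPA, with the largest differences in PLC/PRF/5 and between the lines, and NR5A2, the member with the largest higher value under knockdown in both lines. The sequences run from 250 bases before to 50 bases after a transcription start, in RefSeq (GRCh38.p14). They serve as sequence only, since the expression files were made on hg19. HNF4A has a promoter P1, used in adult liver, at chr20:44400989-44401288 (plus strand) and an upstream promoter P2 at chr20:44355449-44355748 (plus strand). The downstream of the NR5A2 starts lies at chr1:200042341-200042640 (plus strand), and that of CEBPA at chr19:33302485-33302784 (minus strand). Capitals mark matches to the motifs listed after the sequences.
HNF4A P1: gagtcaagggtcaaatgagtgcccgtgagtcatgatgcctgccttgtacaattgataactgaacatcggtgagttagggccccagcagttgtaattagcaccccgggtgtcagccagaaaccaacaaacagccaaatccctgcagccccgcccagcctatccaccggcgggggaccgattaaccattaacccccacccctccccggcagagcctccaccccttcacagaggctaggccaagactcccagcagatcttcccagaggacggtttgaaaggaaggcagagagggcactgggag
HNF4A P2: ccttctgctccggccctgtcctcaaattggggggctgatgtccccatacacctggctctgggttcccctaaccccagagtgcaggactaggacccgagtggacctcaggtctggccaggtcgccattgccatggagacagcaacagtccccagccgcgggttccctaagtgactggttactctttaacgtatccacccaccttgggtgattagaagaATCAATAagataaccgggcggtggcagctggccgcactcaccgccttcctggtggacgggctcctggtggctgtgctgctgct
NR5A2: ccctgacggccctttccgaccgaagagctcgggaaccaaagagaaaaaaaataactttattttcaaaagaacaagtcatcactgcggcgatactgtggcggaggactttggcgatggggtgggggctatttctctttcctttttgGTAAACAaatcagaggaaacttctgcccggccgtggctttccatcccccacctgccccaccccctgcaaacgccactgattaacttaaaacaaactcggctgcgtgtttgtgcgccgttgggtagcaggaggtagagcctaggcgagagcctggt
CEBPA: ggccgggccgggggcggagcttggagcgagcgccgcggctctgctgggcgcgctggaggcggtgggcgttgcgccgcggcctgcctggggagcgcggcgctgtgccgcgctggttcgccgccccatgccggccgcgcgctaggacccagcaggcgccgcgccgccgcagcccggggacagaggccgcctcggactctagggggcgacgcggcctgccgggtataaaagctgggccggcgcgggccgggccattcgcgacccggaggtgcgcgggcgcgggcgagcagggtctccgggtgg

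RefSeq promoters were matched for 6 of the 8 members, with 8 promoters between them. FOXA2 and PROX1 are named only. On both strands, 9 motifs of the members' own kinds of factor were searched. For HNF4 these were CAAAGTCCA and CAAAGGTCA, and for forkhead factors TGTTTAC and TATTTAC. For C/EBP factors they were TTGCGCAA and TTGCNNAA, of which the second includes the first, for ONECUT factors ATCGAT and TATTGAT, and for NR5A2 CAAGGTCA. HNF4A P2 holds TATTGAT in reverse at position -33 from the start, a word present in 1.71% of the 35116 promoters in the table. The NR5A2 promoter shown holds TGTTTAC in reverse at -105 (3.42% of all promoters). The CEBPA promoter is 80.7% G and C, where the median promoter has 58.7%, and holds none of the 9 words. The other promoters, HNF4A P1 and those of FOXA1, FOXA3, ONECUT1 and the upstream NR5A2 start, hold none either. A match describes letters in these windows and is not evidence of binding. The files give a single value per gene, so transcripts from P1 and P2 of HNF4A are not separated.

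All 8 factors were well expressed in all 4 libraries. Levels are given in TPM, a measure of transcript abundance that is scaled by transcript length and can be compared between genes. The lowest member value was 22.0 TPM (NR5A2 in the PLC/PRF/5 control) and the highest 444 TPM (CEBPA in the Huh7 control). Each member stood above at least 73.7% of all listed genes in every library. Where 2 values of a line stand together below, the control library comes before the knockdown library. CEBPA led in Huh7 and HNF4A in PLC/PRF/5. With 1 library per group there is no replicate spread, so neighbours in the order within a library cannot be said to differ.

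**Figure D1:**
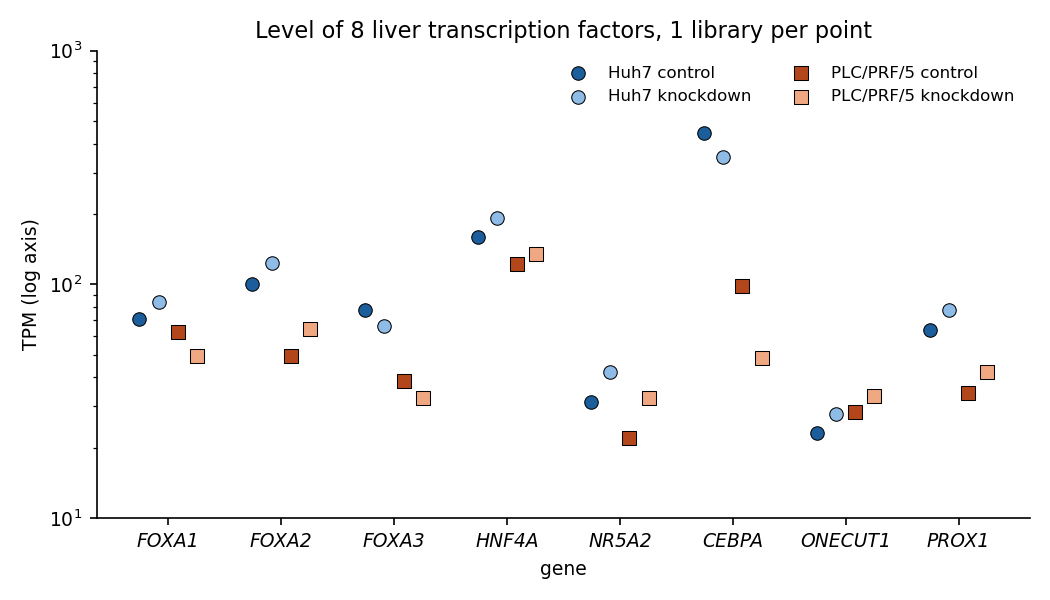
TPM of each of the 8 genes (log axis) in the 4 libraries, 1 point per library, circles for Huh7 and squares for PLC/PRF/5, dark for control and light for SCD knockdown. CEBPA spans 48.4 to 444 TPM, while ONECUT1 stays between 23.0 and 33.3 TPM.

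In the Huh7 control the order was CEBPA, HNF4A, FOXA2, FOXA3, FOXA1, PROX1, NR5A2 and ONECUT1. In the Huh7 knockdown FOXA3 was below FOXA1 and PROX1, with the other places as before. The PLC/PRF/5 control had HNF4A at the top, then CEBPA, FOXA1, FOXA2, FOXA3, PROX1, ONECUT1 and NR5A2. In the PLC/PRF/5 knockdown CEBPA came after HNF4A, FOXA2 and FOXA1. Summed over the 8 genes, the level was 971 and 964 TPM in the control and knockdown of Huh7, and 456 and 437 TPM in PLC/PRF/5.

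SCD itself was 12.8-fold lower in the knockdown of Huh7 and 6.25-fold lower in that of PLC/PRF/5, as the labels say. Depth is unknown, because TPM keeps none, and 17405 to 17931 genes were above 0 per library. The tissue label was checked on 10 genes for secreted liver proteins, none of which was listed at 0. They summed to 19138 and 22301 TPM in the Huh7 pair, and to 5930 and 4055 TPM in the PLC/PRF/5 pair, where TTR was under 1 TPM in both libraries. Without the most abundant gene, ALB in Huh7 and APOB in PLC/PRF/5, the sums were 12639 and 11822 TPM, and 4151 and 2570 TPM. In Huh7, 5 of the 10 were higher under knockdown and 5 lower (median -0.12), where 60.2% of all genes were higher. In PLC/PRF/5 8 of 9 considered were lower (median -0.85), where 36.5% of all genes were. Of 8 biliary and progenitor markers, 6 reached 1 TPM in the control of Huh7, 7 in its knockdown and 3 in each PLC/PRF/5 library. Their sum was 666 and 1087 TPM in Huh7 and 65.7 and 80.3 TPM in PLC/PRF/5. Without the most abundant gene, KRT19 in Huh7 and SOX9 in PLC/PRF/5, the sums were 392 and 523 TPM, and 29.8 and 41.0 TPM. In Huh7, 6 of 7 considered were higher under knockdown and 1 lower, SOX9, at 171 and 132 TPM. In PLC/PRF/5 3 of 3 considered were higher, where 63.4% of all genes were. Of 14 mesenchymal, endothelial and immune markers, LYZ, which encodes lysozyme, was at 1008 to 2600 TPM. The other 13 summed to 16.1 to 57.9 TPM, with ACTA2 and STAB2 listed at 0 throughout and PTPRC under 1 TPM. Of the 14, 7 were under 1 TPM in each Huh7 library and 11 in each PLC/PRF/5 library. After LYZ, the highest was COL1A2 in the Huh7 control, at 30.9 TPM against 9.63 TPM in the knockdown. CD68 was the highest after LYZ in the Huh7 knockdown (9.71 TPM) and in the PLC/PRF/5 pair (27.0 and 13.0 TPM). The part of these markers in the results below was not tested. In bulk libraries a smaller share of cells of a kind and less RNA per cell cannot be told apart.

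Knockdown and control libraries differed by less than 2-fold in each of the 8 factors in each line, except for CEBPA in PLC/PRF/5. On the scale used for differences, 1 TPM was added to every value before taking log2, which understates the change of low genes. FOXA2, HNF4A, NR5A2, ONECUT1 and PROX1 were higher in both knockdown libraries, FOXA3 and CEBPA were lower in both, and FOXA1 was higher in the Huh7 knockdown but lower in that of PLC/PRF/5. In Huh7 that is 6 members higher and 2 lower, where 60.2% of genes were higher and 39.7% lower. In PLC/PRF/5 it is 5 and 3, where 63.4% were higher and 36.5% lower. Of 12064 genes with a value in each comparison, 5608 (46.5%) were higher under knockdown in Huh7 as well as in PLC/PRF/5, 2698 lower in both and 3735 opposite. The median difference of all genes was 0.08 in Huh7 and 0.10 in PLC/PRF/5, and that of the 8 factors 0.27 and 0.18. Rescaling of libraries by median ratios moved the median of all genes by -0.08 in Huh7 and -0.11 in PLC/PRF/5, and left each member's sign in each line as it was. On that scale 3865 of 12039 genes were higher in both lines and 4248 lower, so the excess of higher genes depends on the scaling. After that rescaling the members' medians were 0.18 and 0.06.

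**Figure D2:**
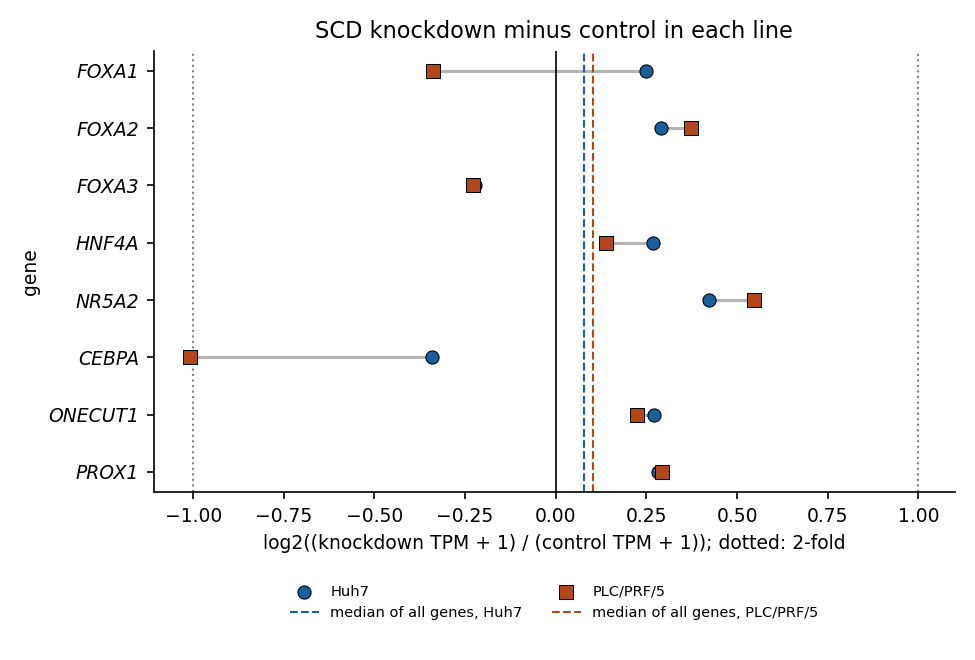
Log2 difference between knockdown and control on the x axis for each of the 8 genes, circles for Huh7 and squares for PLC/PRF/5, with dashed lines at the median of all genes and dotted lines at 2-fold. CEBPA in PLC/PRF/5, at -1.01, is the single point past 2-fold, and FOXA1 has its points on either side of 0.

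CEBPA, the basic leucine zipper factor of mature hepatocytes, measured 444 and 350 TPM in the Huh7 pair and 98.3 and 48.4 TPM in the PLC/PRF/5 pair. Both knockdown libraries were thus below their own control, and both PLC/PRF/5 libraries below both Huh7 libraries. The log2 difference was -0.34 in Huh7 and -1.01 in PLC/PRF/5, a level 2.03-fold lower. The 2-fold call rests on a narrow margin, since the difference was -0.95 with a pseudocount of 5 and -1.13 with median-ratio rescaling.

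The FOXA factors, which share a forkhead DNA-binding domain, had 3 different patterns. FOXA1 measured 70.7 and 84.2 TPM in the Huh7 pair and 62.7 and 49.3 TPM in the PLC/PRF/5 pair. Its knockdown libraries are therefore its highest and its lowest of the 4, with log2 differences of 0.25 and -0.34. FOXA2, which continues to act in adult liver metabolism, measured 101 and 123 TPM in the Huh7 pair and 49.5 and 64.5 TPM in the PLC/PRF/5 pair. It was higher in the knockdown of both lines, by 0.29 and 0.37 on the log2 scale. FOXA3, a FOXA gene expressed in adult liver, measured 77.8 and 66.5 TPM in the Huh7 pair and 38.5 and 32.7 TPM in the PLC/PRF/5 pair. It was lower in the knockdown of both lines, with log2 differences of -0.22 and -0.23.

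Of the nuclear receptors, HNF4A measured 160 and 192 TPM in the Huh7 pair and 122 and 135 TPM in the PLC/PRF/5 pair. These are ratios of 1.205 and 1.10, and the log2 difference of 0.14 in PLC/PRF/5 was 0.02 after median-ratio rescaling. NR5A2, the liver receptor homologue that binds DNA as a monomer, measured 31.3 and 42.3 TPM in the Huh7 pair and 22.0 and 32.6 TPM in the PLC/PRF/5 pair. Its ratios of 1.35 and 1.48 were the highest of the 8 genes in each line. The knockdown library of PLC/PRF/5 stood slightly above the control library of Huh7.

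The homeodomain factors were both slightly higher under knockdown. ONECUT1 measured 23.0 and 27.97 TPM in the Huh7 pair and 28.4 and 33.3 TPM in the PLC/PRF/5 pair, with log2 differences of 0.27 and 0.22. PROX1 measured 63.8 and 77.7 TPM in the Huh7 pair and 34.1 and 42.04 TPM in the PLC/PRF/5 pair, with 0.28 and 0.29. PROX1 had nearly the same difference in both lines although its level was 1.87-fold higher in the Huh7 control.

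With 1 library per group, a size rule of at least 2-fold stands in for a test. By it, 0 members were called in Huh7, where 4.63% of 13485 genes were, and 1 in PLC/PRF/5, CEBPA, where 2.83% of 13057 genes were. At 1.5-fold the members were again 0, where 14.8% of genes passed, and 1, where 12.1% did. The median absolute difference was 0.28 for members and 0.22 for all genes in Huh7, and 0.32 and 0.22 in PLC/PRF/5. These comparisons are between single libraries and have no replicate check.

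Taking the lines as repeats, a limma fit of log2(TPM + 1) with terms for line and arm called 0 of the 8 members at an adjusted p under 0.05, higher or lower, against 0.00724% of 13813 genes (1 gene). At an unadjusted p under 0.05 it had 3 members higher (FOXA2, NR5A2 and PROX1), against 12.7% of all genes, and 1 lower (CEBPA), against 5.24%, so 4 of 8 where 18% of all genes passed. NR5A2 had the lowest adjusted p of the members in limma, 0.188, with a mean difference of 0.49 (standard error 0.12, 95% interval 0.18 to 0.79). CEBPA followed at limma adjusted p = 0.201, with -0.68 (standard error 0.17, interval -1.13 to -0.22). The other 6 had limma adjusted p values from 0.212 (FOXA2) to 0.904 (FOXA1). For HNF4A the mean was 0.20 with an interval of -0.03 to 0.44, and for FOXA1 -0.04 with an interval of -0.48 to 0.39. Both intervals include 0. All these values, and the counts at an unadjusted p, are without rescaling of libraries, and they depend on it. After median-ratio rescaling the mean was 0.23 for FOXA2 (standard error 0.09) and 0.19 for PROX1 (0.10), but -0.33 for FOXA3 (0.10). On that scale CEBPA had the lowest limma adjusted p of the members, 0.168, while that of NR5A2 was 0.226. The fit has 1 residual degree of freedom, moderated by 3.71 prior degrees of freedom from all genes. Its p-values set the mean difference against a moderated error from how alike the lines moved, not against the spread of repeat cultures. Whether the knockdown difference itself differed between the lines could not be tested, as the interaction leaves no residual.

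Between the lines, 7 of the 8 factors were higher in Huh7 in both arms and ONECUT1 was lower in both. In the limma fit, each member except NR5A2 differed more between the lines than between the arms. NR5A2 differed by 0.43 between the lines and 0.49 between the arms. The median absolute line difference was 0.69 for members and 0.60 for all genes in the controls, and 0.82 and 0.60 in the knockdowns. All genes thus also differed more between the lines than between the arms, where that median was 0.22 in each line. Of all genes, 48.9% were higher in Huh7 between the controls and 46.8% between the knockdowns. In the limma fit, 6 members were higher in Huh7 at an adjusted p under 0.05 and 0 lower, where 28.3% of genes were higher and 31.5% lower, 59.8% in all. The median difference between the lines was 0.67 for the 8 members and -0.05 for all genes of the fit. Here the p sets the size of the line difference against a moderated error from how alike it was in the control and knockdown arms. It does not measure the spread of repeat cultures.

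**Figure D3:**
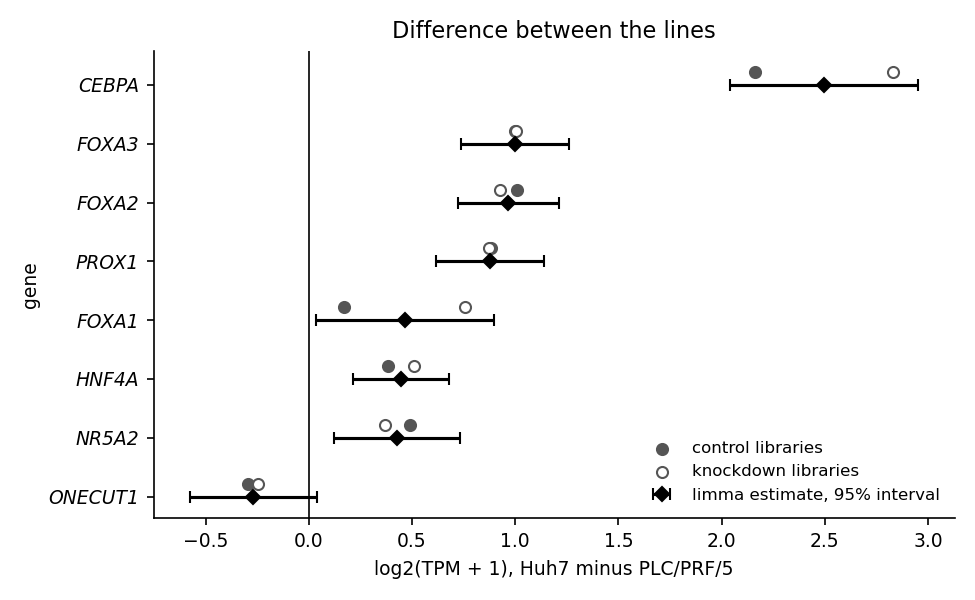
Log2(TPM + 1) in Huh7 minus PLC/PRF/5 on the x axis, with diamonds for the limma estimate over both arms, bars for its 95% interval, filled circles for the control libraries and open circles for the knockdown libraries. CEBPA stands apart at 2.50, and ONECUT1 is the single gene to the left of 0.

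CEBPA had the largest line difference of the members, at 2.50 (standard error 0.17, limma adjusted p = 7.3e-04). Its level in Huh7 was 4.51-fold that of PLC/PRF/5 in the controls and 7.23-fold in the knockdowns. FOXA3 followed at 1.00 (standard error 0.10, limma adjusted p = 0.00166) and FOXA2 at 0.97 (0.09, limma adjusted p = 0.00152). PROX1 differed by 0.88 (standard error 0.10, limma adjusted p = 0.00227). HNF4A and NR5A2 differed less, by 0.45 and 0.43 (limma adjusted p = 0.0115 and 0.0296).

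Neither FOXA1 nor ONECUT1 passed between the lines. FOXA1 was 1.13-fold higher in Huh7 in the controls and 1.71-fold in the knockdowns, with a mean of 0.47 and a 95% interval of 0.03 to 0.90 (limma adjusted p = 0.0637). It passed with median-ratio rescaling (limma adjusted p = 0.0445). ONECUT1 had a mean of -0.27 and an interval of -0.58 to 0.04 (limma adjusted p = 0.107). By the 2-fold size rule, CEBPA and FOXA2 were called between the controls, where 30.7% of genes were, and CEBPA and FOXA3 between the knockdowns, where 30.7% of genes were as well. The shares of genes at least 2-fold higher in Huh7 were 15.8% and 15.6%. At 1.5-fold, 4 members passed between the controls, where 51% of genes did, and 5 between the knockdowns, where 50.7% did. FOXA2 and FOXA3 lie close to 2-fold in both arms, from 0.93 to 1.01 on the log2 scale.

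Shares within a family do not depend on how a library is scaled. In Huh7 the FOXA genes summed to 249.1 and 274.0 TPM in control and knockdown, and in PLC/PRF/5 to 151 and 147 TPM. FOXA2 made up 40.4% of the sum in the Huh7 control and 45.0% in the knockdown, and 32.9% and 44.0% in PLC/PRF/5. FOXA1 made up 28.4% and 30.7% in the Huh7 pair, against 41.6% and 33.7% in the PLC/PRF/5 pair. FOXA2 was thus the leading FOXA gene in 3 libraries and FOXA1 in the PLC/PRF/5 control. FOXA3 had a lower share in the knockdown of each line, 24.3% against 31.2% and 22.3% against 25.5%.

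**Figure D4:**
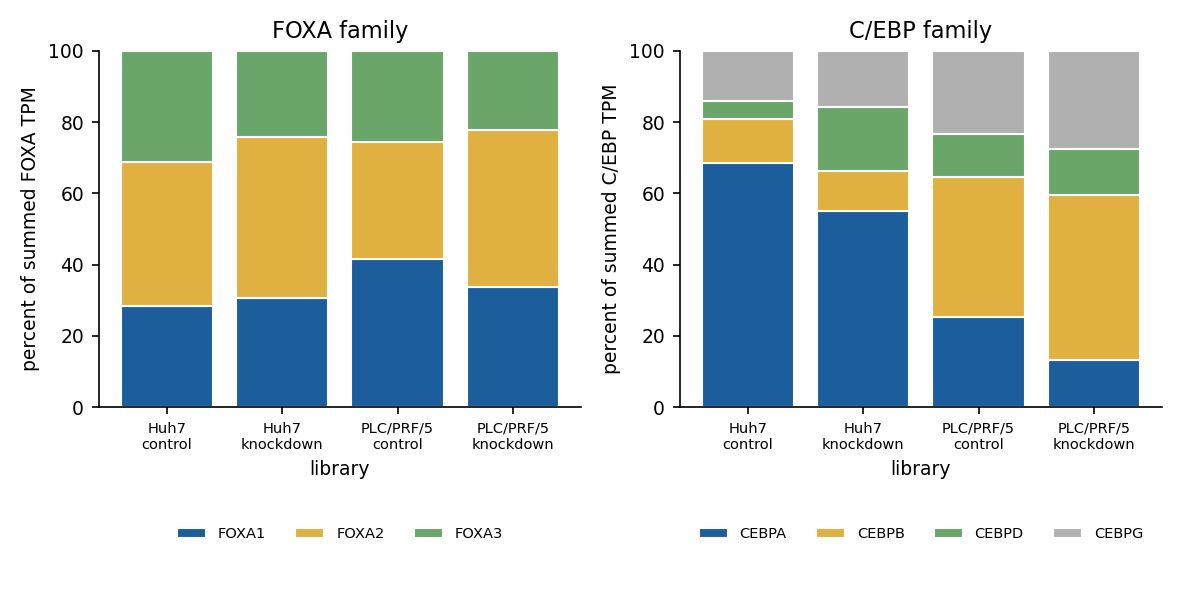
Percent of the summed TPM of FOXA1 to FOXA3 (left) and of CEBPA, CEBPB, CEBPD and CEBPG (right) in each of the 4 libraries, as stacked bars. The CEBPA segment shrinks from 68.5% in the Huh7 control to 13.2% in the PLC/PRF/5 knockdown.

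The C/EBP factors bind the same kind of site as homodimers and heterodimers, and CEBPB and CEBPD are induced in the acute phase. CEBPA made up 68.5% of the summed C/EBP TPM in the Huh7 control and 55.0% in the knockdown. In PLC/PRF/5 it was 25.3% and 13.2%, and there CEBPB was the most abundant, at 152 and 169 TPM. The ratio of CEBPA to CEBPB was 5.54 and 4.89 in the Huh7 pair, against 0.645 and 0.285 in the PLC/PRF/5 pair. CEBPD measured 33.1 and 114 TPM in the Huh7 pair and 47.8 and 47.3 TPM in the PLC/PRF/5 pair. The summed C/EBP level was 648 and 637 TPM in Huh7 and 389 and 366 TPM in PLC/PRF/5. These 4 genes were set side by side after the values of CEBPA had been seen.

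Other liver transcription factors were taken from a list of 28, of which none passed the knockdown comparison in limma over both lines. At an unadjusted p under 0.05 it had 2 higher and 3 lower of 26 fitted, against 12.7% and 5.24% of all genes. Of 26 considered in Huh7, 11 were higher and 15 lower (median -0.10), where 60.2% of all genes were higher (median 0.08). Of 24 in PLC/PRF/5, 13 were higher and 11 lower (median 0.03), where 63.4% of all genes were higher (median 0.10). The list median in PLC/PRF/5 was -0.08 after median-ratio rescaling, so it has no stable sign. By the 2-fold rule, 2 were higher in Huh7 and 0 lower, against 3.10% and 1.54% of all genes, and 2 were lower in PLC/PRF/5 and 0 higher, against 1.11% and 1.72%. The Huh7 count fell to 1 with a pseudocount of 5, a filter of 5 TPM or median-ratio rescaling. The PLC/PRF/5 count fell to 1 with a pseudocount of 5.

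The 4 genes called in the main setting were CEBPD and NR1I2 in Huh7 and NR1H4 and CREB3L3 in PLC/PRF/5. NR1H4, the bile acid receptor FXR, measured 133 and 99.0 TPM in the Huh7 pair and 5.68 and 0.44 TPM in the PLC/PRF/5 pair, so it was lower in both knockdown libraries and far lower in PLC/PRF/5. NR1I2, the xenobiotic receptor PXR, was at 1.83 and 4.84 TPM in Huh7 and under 0.1 TPM in PLC/PRF/5. CREB3L3, a membrane-bound factor of fasting lipid metabolism, measured 32.0 and 29.03 TPM in the Huh7 pair and 102 and 48.4 TPM in the PLC/PRF/5 pair.

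Between the lines, limma had 10 of the 26 higher in Huh7 and 6 lower at an adjusted p under 0.05, where 28.3% and 31.5% of all genes were. The largest differences toward Huh7 were those of NR1H4 (5.22), NR2F1 (5.09), an orphan receptor of the COUP-TF type, and GATA6, a zinc finger factor of early liver. GATA6 was at 37.4 and 24.1 TPM in Huh7 and listed at 0 in both PLC/PRF/5 libraries. Toward PLC/PRF/5 they were PPARGC1A (-1.81), the coactivator of gluconeogenesis, ATF5 (-1.61) and CREB3L3 (-1.18).

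Known target genes of the 8 factors were mostly lower in the PLC/PRF/5 knockdown and mixed in that of Huh7. The list holds 29 genes known as targets of at least 1 member. In PLC/PRF/5, 16 of 17 considered were lower, 1 was higher and the median was -0.66, while 36.5% of all genes were lower. In Huh7, 10 of 21 considered were higher and 11 lower (median -0.05), while 60.2% of all genes were higher. Hepatocyte genes, which overlap this list, were already known to be lower in that knockdown library, so the list is no independent evidence of that direction. None of 21 fitted targets passed the knockdown comparison in limma over both lines, and at an unadjusted p under 0.05 there were 1 higher and 7 lower, against 12.7% and 5.24% of all genes.

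**Figure D5:**
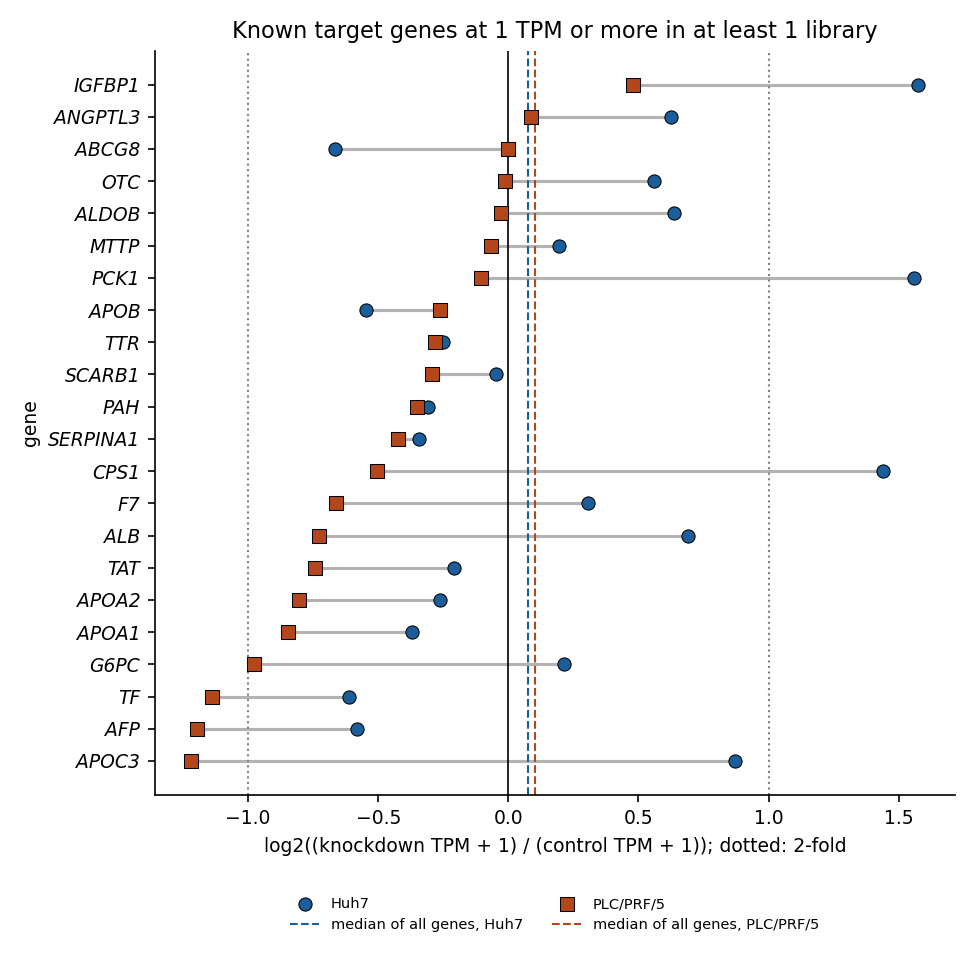
Log2 difference between knockdown and control on the x axis for the listed target genes that reach 1 TPM in at least 1 library, circles for Huh7 and squares for PLC/PRF/5, ordered by the PLC/PRF/5 value. Most squares lie left of 0, down to -1.22 for APOC3, and the circles lie on both sides.

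Grouped by factor, the 12 considered targets of HNF4A were all lower in PLC/PRF/5 (median -0.70), where HNF4A itself had a ratio of 1.10. In Huh7, 7 of 16 were higher and 9 lower (median -0.23), where HNF4A had a ratio of 1.205. Targets of CEBPA were lower in PLC/PRF/5 in 6 of 6 cases (median -0.74), and higher in Huh7 in 4 of 6 (median 0.62). CEBPA itself was lower in the knockdown of both lines. Of the FOXA targets, 6 of 7 were lower in PLC/PRF/5 and 4 of 7 higher in Huh7. Among all genes, 36.5% were lower in PLC/PRF/5 and 60.2% higher in Huh7. The Huh7 counts for CEBPA and FOXA targets thus lie near the share of all genes. Targets of NR5A2 were lower in all 3 cases in PLC/PRF/5 and all 4 in Huh7, where 36.5% and 39.7% of all genes were. NR5A2 itself was higher in the knockdown of both lines. These groups are small and share genes, since a gene is listed under each factor it is known for. Whether the level of a factor bears on that of its targets was not tested.

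At least 2-fold differences were 3 higher in Huh7 (IGFBP1, PCK1 and CPS1), where 3.10% of all genes were, and 3 lower in PLC/PRF/5 (APOC3, AFP and TF), where 1.11% were. These counts move with the pseudocount, to 4 and 5 at 0.1 TPM and to 1 and 1 at 5 TPM. APOC3, an apolipoprotein of triglyceride-rich particles and a target of HNF4A, measured 55.9 and 103 TPM in the Huh7 pair and 4.77 and 1.48 TPM in the PLC/PRF/5 pair. CPS1, the entry enzyme of the urea cycle and a target of CEBPA, measured 7.41 and 21.8 TPM in the Huh7 pair and 1799 and 1267 TPM in the PLC/PRF/5 pair. PCK1, the key enzyme of gluconeogenesis, measured 0.13 and 2.33 TPM in the Huh7 pair and 12.6 and 11.6 TPM in the PLC/PRF/5 pair. Both genes were at a higher level in PLC/PRF/5 than in Huh7. The log2 differences of CPS1 were 1.44 (Huh7) and -0.50 (PLC/PRF/5). Those of PCK1 were 1.56 and -0.10, the last below the median size for all genes (0.22). IGFBP1, a FOXA target, measured 1.54 and 6.57 TPM in the Huh7 pair and 264 and 368 TPM in the PLC/PRF/5 pair. TF, transferrin, had log2 differences of -0.61 and -1.14, and AFP, the fetal plasma protein, of -0.58 and -1.20, lower in both lines.

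Between the lines, limma had 13 of 21 fitted targets higher in Huh7 and 6 lower at an adjusted p under 0.05, where 28.3% and 31.5% of all genes were. The largest were AFP (10.03), TTR (8.06), the thyroxine carrier, and ALB (7.24) toward Huh7. CPS1 (-6.77), IGFBP1 (-6.16) and PCK1 (-2.76) were the largest toward PLC/PRF/5. Each of these 6 differences was larger in size than that of CEBPA, the largest among the 8 factors.

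Genes with the profile nearest to each member were found by Euclidean distance between log2(TPM + 1) values centred over the 4 libraries, among 13812 other genes. This is a description over 4 points, and close profiles are common: within a distance of 0.2 there were from 74 genes (FOXA1) to 637 genes (ONECUT1) for 7 of the members. CEBPA had 1 such gene, ASAP3 (0.18), followed by RPL39L (0.23), which has a paralogue, RPL39. The values were centred but not scaled, and CEBPA had the widest spread of the members, from 48.4 to 444 TPM. Counts within a fixed distance depend on that spread. Whether the CEBPA profile differs in shape from the others was not tested. The nearest genes were SHBG (0.05) and ACSL4 (0.06) for FOXA1, ATXN7L3B (0.02) and ATP13A1 (0.03) for FOXA2, and SLC25A4 (0.02) and CENPK (0.06) for FOXA3. They were FLJ31356 (0.02) and FBXL19-AS1 (0.03) for HNF4A, and BRPF1 (0.05) and PRKRIP1 (0.05) for NR5A2. For ONECUT1 they were RNF103 (0.01) and ZMAT5 (0.03), and for PROX1 CISH (0.05) and PAIP1 (0.06). SHBG, FLJ31356 and CISH were at or below 2.35 TPM in every library, where this scale compresses differences.

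Sequence shared with other genes was small for the members. In GENCODE 29, 4.39% of the 31-base words of the longest FOXA2 transcript and 2.26% of those of FOXA1 occur in another gene, the share being at or under 0.982% for the others. Exons of FOXA1, CEBPA and PROX1 overlap those of a gene on the other strand there, and those of FOXA2 a gene on its own strand (AL121722.1), which no strand setting would separate. As the strand setting of the counting is not given in the sources used here, reads of the opposite-strand pairs cannot be told apart either. CEBPA-AS1, listed separately in the files, measured 9.55 and 13.4 TPM in the Huh7 pair and 6.20 and 4.89 TPM in the PLC/PRF/5 pair, below CEBPA in every library.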

How the data were processed

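Total RNA was isolated with TRIzol and libraries followed standard Illumina steps, per the labels' protocols. The authors deposited 1 table per library of TPM by gene symbol, rounded to 2 decimals. Tools named in the submitters' processing notes are cutadapt and RSEM 1.2.21, with hg19 as the build. Which aligner, annotation and strand setting were used is not given in the sources here. RSEM divides reads that fit several genes among them. TPM sums to the same total in each library, so a large change in abundant genes moves all others, and depth is lost: no counting interval was computed.

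Groups came from the sample titles. Per-line differences used a pseudocount of 1 TPM and genes with at least 1 TPM in either library, and were called at 2-fold, a size rule and not a test. Over all 4 libraries, limma 3.58.1 (R 4.3.3) was fitted with line and arm terms and a variance trend to 13813 genes with at least 1 TPM in at least 2 libraries (two-sided, Benjamini-Hochberg over all genes at 0.05), and was tested on simulated data. Nothing states that libraries are independent experiments. Other steps ran in Python 3.11.15, with plots from matplotlib 3.10.9. Alternatives were pseudocounts of 0.1 and 5, a filter of 5 TPM or none, median-ratio rescaling, a 1.5-fold rule, no trend, and fits without the other term.

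Named genes were the members, SCD, genes of the lists of other liver transcription factors and known targets that were at least 2-fold different between arms in either line, the 3 largest line differences per direction in these lists, and the 2 nearest profiles per member. Other genes were named after their values were seen. The members and lists were chosen with earlier results of these data known. Results on 1 further transcription factor of the lists are not reported here.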

Additional observations from a re-analysis of the deposited data

Results flagged for a closer look

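Of the genes the report names for a difference between arms, 5 were higher in the knockdown library of Huh7 and lower in that of PLC/PRF/5, with 1 library on each side. Whether these differences between the lines exceed the spread of repeat cultures was not tested. Opposite signs in the lines were also common among all genes, by the counts given in the Results. A change of sign alone thus does not set these genes apart. FOXA1 had log2 differences of 0.25 in Huh7 and -0.34 in PLC/PRF/5. CEBPD had 1.76 and -0.0137, the latter close to no difference. APOC3 had 0.87 and -1.22, PCK1 had 1.56 and -0.10, and CPS1 had 1.44 and -0.50.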

How the results depend on the processing

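Under all alternatives run, each member kept the sign of each difference, and in limma 0 of 8 members passed the knockdown comparison. With a pseudocount of 5, the members called at 2-fold went from 1 to 0 in PLC/PRF/5 knockdown against control, from 2 to 1 between the control libraries and from 2 to 1 between the knockdown libraries, since those values lie close to 2-fold. It was 3 between the controls with a pseudocount of 0.1 or median-ratio rescaling, and 3 between the knockdowns with that rescaling. A 1.5-fold rule called 4 members between the controls, where 51% of all genes pass, and 5 between the knockdowns, where 50.7% do. Between the lines, NR5A2 no longer passed in limma without the arm term (adjusted p = 0.231), while CEBPA, FOXA2, FOXA3, PROX1 and HNF4A passed in all 8 fits. The highest adjusted p of HNF4A was 0.0496. The fit compares the arms within each line. The labels give no replicate numbers for a further block, and with 1 library per group none can be left out. TPM keeps no read numbers, so no depth limit was set.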

Other observations

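ONECUT2, the paralogue of ONECUT1, had almost the same difference in both lines. It measured 25.0 and 48.1 TPM in the Huh7 pair of control and knockdown and 12.5 and 24.5 TPM in the PLC/PRF/5 pair, ratios of 1.92 and 1.96, with a limma adjusted p = 0.129 over both lines. ONECUT1 measured 23.0, 27.97, 28.4 and 33.3 TPM in the same 4 libraries. ONECUT2 was thus above it in both Huh7 libraries, by little in the control, and below it in both PLC/PRF/5 libraries. NR2F6, an orphan receptor, was lower in both lines, with 163 and 102 TPM in the Huh7 pair and 180.3 and 109.6 TPM in the PLC/PRF/5 pair (limma adjusted p = 0.129). KRT19, a biliary keratin, was higher in both. Its levels were 274 and 564 TPM in Huh7 and 4.11 and 8.02 TPM in PLC/PRF/5 (limma adjusted p = 0.129). Of the 7 biliary and progenitor markers considered in Huh7, 6 were higher under knockdown and 1, SOX9, was lower. ONECUT2, NR2F6 and KRT19 were picked after their values were seen.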
